A study of Homo sapiens with 28 samples.

Results

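The comparison described here set A549 cells given decitabine at 0.3 µM against A549 cells given the DMSO vehicle, with the deposited array values of 2 treated and 2 vehicle samples, 4 of the 28 arrays of the series. A549 is an established line from a human lung adenocarcinoma. The series also holds decitabine at 1 and 3 µM, azacitidine at 0.3, 1 and 3 µM, and the same arms in H1299, a second established non-small cell lung cancer line. Each arm has 2 samples, the drug-treated cells were collected after 48 h, and fresh drug went into the medium every 24 h. Beside the 4 arrays of the main comparison, values are given for A549 with decitabine at 1 µM, decitabine at 3 µM and azacitidine at 0.3 µM, and for H1299 with vehicle and with decitabine at 0.3 µM. One of the A549 arrays at 3 µM decitabine (replicate 1) is labelled as a repeat. The labels do not say that replicates came from separate cultures, so the p-values measure the spread between these samples, which may be technical.

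Decitabine (5-aza-2'-deoxycytidine) is a deoxyribonucleoside that deoxycytidine kinase phosphorylates and polymerases build into DNA, where it traps DNA methyltransferases, so that methylation of CG sites is lost as cells replicate. Azacitidine (5-azacytidine) is the ribonucleoside with the same base. It is known to enter RNA for the most part and to reach DNA only after reduction to the deoxy form. Cancer-testis genes, which are normally transcribed in the male germ line and are kept silent elsewhere by methylation of their promoters, are the class best known to be switched on by these drugs. DNA damage is known to raise genes that act in cell cycle arrest, repair and death.

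The arrays resembled each other in scale, apart from one of the A549 vehicle arrays. All 28 had a trimmed mean signal between 500.125 and 500.159, which is how their values were scaled. The 25th percentile of the signal was 28.3 on vehicle replicate 1, the highest of all 28, against 20.1 on vehicle replicate 2 and 21.9 and 21.6 on the treated arrays, and its median was 123 against 106, 110 and 109. Counts are therefore also given without vehicle replicate 1. A549 identity held on all 4 arrays: 14 of 14 marker genes of the line on the array were above the array median with vehicle and with decitabine, against 4 of 14 in H1299 vehicle. All 17 leukocyte markers on the array were below the array median, with summed signals of 601 and 424 with vehicle and 457 and 428 with decitabine. Of 13 fibroblast and endothelial markers 2 were bright enough to test, and neither passed the threshold, with summed signals over the 13 of 699 and 619 with vehicle and 554 and 514 with decitabine. The part of these genes in the results was not tested. As the arrays measure bulk RNA, a rise in a few cells and a smaller rise in all cells cannot be told apart.

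Decitabine at 0.3 µM changed a minority of genes. The largest differences among the genes tested were rises of genes that were near silent with vehicle. A gene was tested where its signal was above the array median on at least 2 of the 28 arrays. Of 8024 genes tested, 617 (7.69%) passed an adjusted p of 0.05, of which 346 were higher (4.31% of all tested) and 271 lower (3.38%). Rises reached further than falls: 64 genes rose by at least 1 on the log2 scale against 7 that fell that far, and 12 against 0 reached a difference of 2. A near silent gene could pass the filter through other arrays where it was high, and a signal near 0 leaves little room to fall. The numbers of large rises and large falls are thus not a like comparison. Of those 64 rises, 51 started from a mean vehicle signal under 100 and 20 from a signal under 24.2, the vehicle 25th percentile. The median called rise was 0.55 and the median called fall was −0.49 on the log2 scale, with a median standard error of 0.13 over all genes. The treated and vehicle arrays did not overlap for any of the 617 genes, nor for 49.9% of all genes tested. Differences are on the scale of log2(signal + 32), which understates the change of dim genes.

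The number of genes called depended on each single array, as 2 arrays a group leave little to spare. Without vehicle replicate 1 the count was 313 (214 higher and 99 lower), without vehicle replicate 2 it was 588, and without treated replicate 1 or 2 it was 290 or 333. Centring each array on its median gave 358 higher and 156 lower, which is 69.6% higher in place of 56.1%. All 15 of the largest rises passed in every setting that tested them. Of 109 called genes that the naming rule selected, 54 passed again whichever of the 4 arrays was left out, and for the genes of this rule described below that did not, the lost call is stated.

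**Figure D1:**
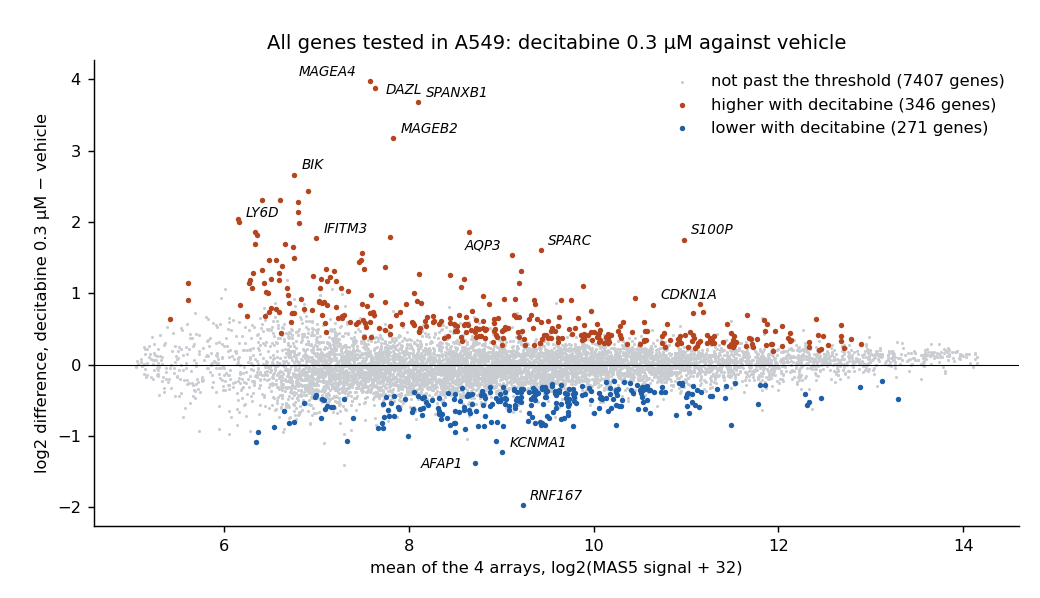
Log2 difference between decitabine 0.3 µM and vehicle in A549 (vertical axis) against the mean log2(signal + 32) of the 4 arrays (horizontal axis), 1 point per gene for 8024 genes. The 346 genes called higher reach 3.98, while the 271 called lower stop at −1.97.

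Cancer-testis and germ cell genes gave the largest rises of the comparison. MAGEA4, an X-linked antigen of the MAGE family, had signals of 19.2 and 13.8 with vehicle and of 722 and 740 with decitabine. The vehicle values lie below the 25th percentile of their arrays and the treated values well above the median. The difference was 3.98 on the log2 scale (SE 0.197, adjusted p = 1.13e-11, limma). DAZL, an autosomal RNA-binding protein of germ cells, went from 27.2 and 13.7 to 711 and 752, a rise of 3.87 (SE 0.162, adjusted p = 1.19e-12). SPANXB1, a sperm nuclear protein, went from 39.2 and 51.0 to 1100 and 829, a rise of 3.68 (SE 0.240, adjusted p = 1.21e-09). MAGEB2 went from 64.0 and 28 to 659 and 649, a rise of 3.18 (SE 0.169, adjusted p = 3.65e-11). For all 4 genes the lowest treated array stood far above the highest vehicle array.

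Of 45 cancer-testis genes listed, 22 were on the array and 15 passed the filter on low signal. Of these 15, 10 rose and 0 fell, against 4.31% of all genes rising, with a median difference of 1.69 against −0.02 over all genes. A gene could pass the filter through the arrays where it was high, so this count does not describe the silent members. Besides the genes above, SSX1 rose by 2.43 (21.3 ± 18 to 248 ± 0.641, SD, n = 2), MAGEA1 by 2.28 (20.3 ± 18.7 to 215 ± 0.251), SSX3 by 1.98 and MAGEA12 by 1.86 (179 ± 14 to 734 ± 25.5). MAGEB1, MAGEC1 and MAGEA6, named here after their values were seen, rose by 1.69, 1.19 and 0.91. The probe sets of SSX1, SSX3, MAGEA1, MAGEA6 and MAGEA12 are of the kind that can take signal from near-identical family members, so rises within these families are not independent. CTAG2 (0.73), MAGEC2 (0.56), MAGEA10 (0.11), TKTL1 (0.07) and GAGE1 (0.01) did not pass. Leaving out any one of the 4 arrays gave 10 or 11 rises.

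Among germ cell genes outside the cancer-testis families, 4 of 9 tested rose and 0 fell (35 listed, 19 on the array), against 4.31% of all genes rising. The limit that the filter sets on the cancer-testis count holds for this count too. TDRD12, a Tudor-domain protein of the piRNA pathway that silences transposons, rose by 2.32 (11.8 ± 3.81 to 186 ± 25.5, adjusted p = 6.32e-11). PRAME was already at 1313 ± 103 with vehicle and rose by 0.35 to 1675 ± 30.7. STAG3, a meiotic cohesin subunit, rose by 0.78, a call lost without vehicle replicate 2 or either treated array (adjusted p up to 0.292). The meiotic genes DMC1 (−0.45) and SYCP2 (0.44) did not pass.

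**Figure D2:**
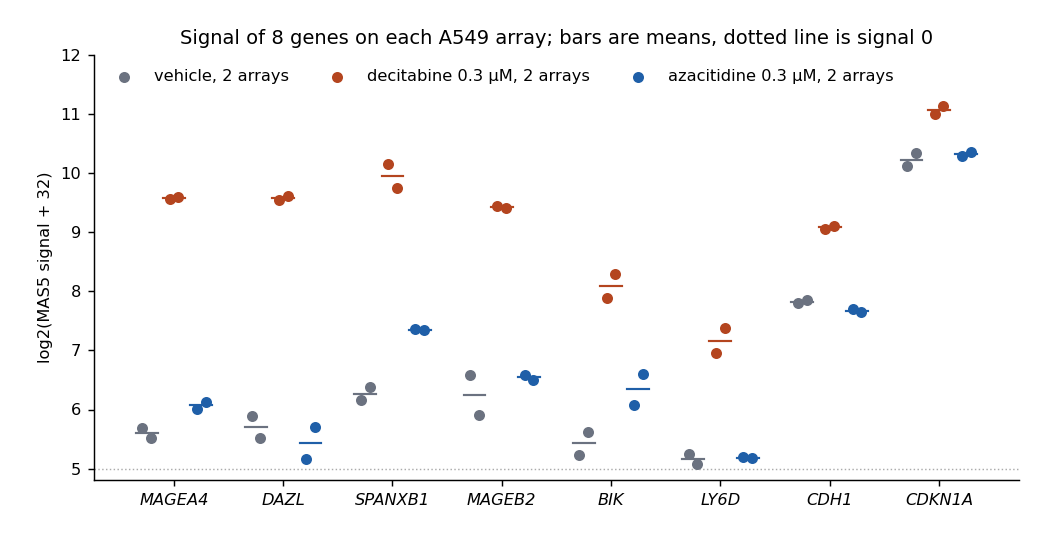
Log2(signal + 32) on each A549 array of vehicle, decitabine 0.3 µM and azacitidine 0.3 µM for 8 genes. Points are arrays, bars are group means and the dotted line marks a signal of 0. For MAGEA4, DAZL and MAGEB2 the decitabine arrays stand alone, while the azacitidine arrays lie near vehicle.

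The promoter sequences below are shown because the largest rises came from promoters of different make-up. They come from RefSeq on GRCh38.p14, as windows of 300 bases, from 250 before to 50 after a gene's start. The germ cell genes DAZL and TDRD12 have CG-rich promoters, given here as the 250 bases before the start with each CG in capitals, 28 in DAZL (chr3:16605424-16605673, minus strand) and 20 in TDRD12 (chr19:32719517-32719766, plus strand).
DAZL: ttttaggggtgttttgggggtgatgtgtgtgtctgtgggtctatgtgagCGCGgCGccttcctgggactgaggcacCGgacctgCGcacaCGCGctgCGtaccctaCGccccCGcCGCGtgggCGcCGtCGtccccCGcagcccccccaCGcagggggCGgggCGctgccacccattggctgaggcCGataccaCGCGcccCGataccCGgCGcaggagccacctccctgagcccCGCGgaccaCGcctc
TDRD12: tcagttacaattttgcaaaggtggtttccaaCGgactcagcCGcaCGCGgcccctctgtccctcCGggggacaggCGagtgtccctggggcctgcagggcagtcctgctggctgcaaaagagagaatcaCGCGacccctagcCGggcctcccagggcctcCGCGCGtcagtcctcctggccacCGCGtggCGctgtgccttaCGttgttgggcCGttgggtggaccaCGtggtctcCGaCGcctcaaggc
Over whole windows of 300 bases the printed DAZL and TDRD12 promoters hold 33 and 26 CG. The windows of MAGEA4 hold 10 to 15, those of MAGEA12 9 and 15, those of MAGEB1 1 and 18, and those of MAGEC1, MAGEA6 and MAGEB2 14, 19 and 21. Several MAGE genes share a short element. ETS factors, which are known to act on MAGEA1, bind a core of GGAA or GGAT. The 5 stretches below, all on the plus strand, show CCGGAT in capitals, in which a CG shares its G with that core. They lie at chrX:151912432-151912464 (MAGEA4), chrX:152733723-152733755 (MAGEA12), chrX:30247113-30247145 (MAGEB1), chrX:30215478-30215510 (MAGEB2) and chrX:141903842-141903874 (MAGEC1).
MAGEA4: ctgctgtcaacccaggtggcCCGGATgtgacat
MAGEA12: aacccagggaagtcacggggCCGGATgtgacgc
MAGEB1: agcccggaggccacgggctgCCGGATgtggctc
MAGEB2: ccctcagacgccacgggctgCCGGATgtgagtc
MAGEC1: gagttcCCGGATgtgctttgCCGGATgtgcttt
CCGGAT on either strand was found in 7.12% of all 35116 RefSeq windows. Of the 10 cancer-testis genes that rose, 8 have windows, and 5 of them hold the element in any window, against 14% of all genes tested. All 5 are of the MAGE family, and the MAGEB1 and MAGEB2 stretches are alike beyond the element, so the 5 are not independent. No share was taken over the cancer-testis genes that did not rise, so a link to the response was not tested. MAGEA4 holds it in all 5 of its windows, MAGEA6 has CCGGAA instead (17.2% of all windows), and SPANXB1 and SSX1 have neither. CACGTG, the core of an E-box, was found in 7.26% of all windows and in 4 of the 8 windows of the germ cell genes that rose. By gene, it was in any window of 13.6% of all genes tested and of 3 of these 4, TDRD12, STAG3 and DAZL, in DAZL in a second window that is not shown. These matches are descriptions of sequence and no binding was measured.

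Over all rises, the strongest ones had fewer CG sites in their promoters. The median number of CG per window was 26 (quartiles 19 and 33) over the 6663 tested genes with a window, 25.5 over 277 genes called higher and 26 over 219 called lower. Among the 47 genes with a window that rose by at least 1, the median was 16 (quartiles 9 and 26), and 14 of them (29.8%) had fewer than 10 CG, against 8.66% of all. Of all 64 rises of at least 1, 51 had a mean vehicle signal under 100, against a median of 473 over all genes tested. These classes thus differ in vehicle signal too, and CG numbers at like vehicle signal were not compared. Low-CG examples are QPRT (3 and 1 in its 2 windows), CNGB1 (4), SSX1 (5) and S100P (5). HPD has 1 window of each kind (32 and 5). In all of these classes the share of genes with CCGGAT in any window lay between 8.22% and 14.1%, against 14% of all genes tested.

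Several tissue-specific genes outside the germ line rose from near 0. BIK, a pro-apoptotic member of the BCL2 family, rose by 2.66 (11.6 ± 8.24 to 244 ± 54.8, adjusted p = 1.08e-05). HPD, an enzyme of tyrosine breakdown, rose by 2.31 (6.45 ± 3.78 to 159 ± 30.3). CNGB1, a subunit of the rod photoreceptor channel, rose by 2.15 (22.6 ± 18.5 to 203 ± 1.17). These genes belong to unlike tissues, and each had a mean vehicle signal under 24.2, the vehicle 25th percentile, though the 2 vehicle arrays of CNGB1 lay far apart. NEFH, the heavy neurofilament chain, rose by 2.04 (3.03 ± 0.0758 to 113 ± 3.06). QPRT, an enzyme of NAD synthesis, rose by 1.87 (10.7 ± 6.20 to 123 ± 6.19). All 5 passed whichever array was left out.

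Damage response genes rose in part, and by modest amounts. CDKN1A, the cell cycle inhibitor p21, had signals of 1078 and 1259 with vehicle and of 2005 and 2221 with decitabine, so the treated arrays lay above both vehicle arrays, and the rise was 0.84 (SE 0.0955, adjusted p = 6.35e-06). PPM1D, a phosphatase that shuts damage signalling off again, rose by 0.91 (552 ± 2.91 to 1065 ± 70.8, adjusted p = 6.11e-05). TIGAR, a regulator of glycolysis, rose by 0.74 (1768 ± 10.1 to 2964 ± 12.8). Among genes of arrest and feedback 6 of 21 tested rose (28.6%, against 4.31% of all genes) and 0 fell (median 0.13). Besides the genes above, the rises were SFN (0.56), CYFIP2 (0.52) and CCNG1 (0.27). The ubiquitin ligase gene MDM2 stayed at 161 ± 27.9 against 159 ± 0.617 (−0.01, 95% interval −0.44 to 0.42), and its sign turned under other scalings. GDF15 had a difference of 0.72 that did not pass (adjusted p = 0.0583).

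Among damage response genes of death and repair, 6 of 17 rose (35.3%, against 4.31% of all genes) and 0 fell (median 0.23). FAS, the death receptor, rose by 0.70 (472 ± 23.8 to 787 ± 43.2, adjusted p = 0.000169). BIK, described above, is on this list too. The nucleotide excision repair genes DDB2 and XPC rose by 0.57 and 0.52. The call of DDB2 was lost without treated replicate 1 (adjusted p = 0.0886) and that of XPC without each of the 4 arrays in turn. IER5 (0.36) and TRIAP1 (0.30) also rose, and BAX (0.58) and APAF1 (−0.58) did not pass. Without vehicle replicate 1 the counts were 3 of 21 and 4 of 17.

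Some epithelial and stratified epithelial genes rose. CDH1, or E-cadherin, which joins epithelial cells at adherens junctions, had signals of 191 and 199 with vehicle and of 502 and 515 with decitabine. The replicates were close and the groups far apart, and the rise was 1.25 (SE 0.168, adjusted p = 4.98e-05), a call that was lost with a pseudocount of 1 (adjusted p = 0.167). EPCAM, an epithelial adhesion molecule, rose by 1.20 (225 ± 13.8 to 558 ± 3.16, adjusted p = 0.000132). CLDN7, a tight junction claudin, rose by 1.82 from 11.8 ± 4.26 to 124 ± 28.5, and the keratin KRT19 by 0.73 from 155 ± 22.7 to 278 ± 24.0. With the desmosomal DSP (0.29), 5 of 23 epithelial genes tested rose (21.7%, against 4.31% of all genes) and 0 fell (median 0.28). MUC1 (0.99) and the keratins KRT18 (0.28) and KRT8 (0.26) did not pass.

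Of 32 genes of stratified epithelia listed, 26 were on the array and 9 passed the filter on low signal. Of these 9, 4 rose, against 4.31% of all genes. A gene could pass the filter through the arrays where it was high, so the count does not describe the silent members. LY6D, a surface protein of squamous and other stratified epithelia, had signals of 5.87 and 1.88 with vehicle and of 92.3 and 133 with decitabine, a rise of 2.0 (SE 0.173, adjusted p = 1.03e-07). The water and glycerol channel AQP3 rose by 1.54 (294 ± 13.4 to 915 ± 37.1) and the calcium-binding S100A2 by 1.32 (344 ± 3.66 to 906 ± 55.8). SFN, also counted with the arrest genes, is the other member. Its call was lost without vehicle replicate 1 or treated replicate 2. Without vehicle replicate 1, 4 of 23 epithelial and 3 of 9 stratified genes were higher, and without vehicle replicate 2, 4 epithelial genes were higher and 1 lower. In the S100 family as a whole 2 of 9 rose, S100A2 and S100P, the latter by 1.75 (1074 ± 214 to 3663 ± 146, adjusted p = 1.64e-05).

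Mesenchymal genes moved in both directions, with 4 of 30 higher and 4 lower (13.3% each, against 4.31% and 3.38% of all genes). The matrix protein SPARC rose by 1.60 (364 ± 7.74 to 1183 ± 251) and the smooth muscle actin ACTA2 by 0.67 (424 ± 41.6 to 693 ± 2.10). COL6A1 (0.61) and TWIST1 (0.44) rose as well, and ZEB2 (−0.75), a repressor of CDH1, COL5A2 (−0.52), CCN1 (−0.50) and CCN2 (−0.35) fell. Apart from SPARC and ACTA2, these calls were each lost without at least 1 array. Among genes reported as methylated in lung cancer, a list partly drawn up with these samples known, 6 of 27 rose (SPARC, CDH1, KLF4, SHOX2, PYCARD and DKK1) and 2 fell (IGFBP7 and THBS1). These are 22.2% and 7.41% of the 27, against 4.31% and 3.38% of all genes. The calls of SHOX2, IGFBP7 and THBS1 were lost without at least 1 array. KLF4, a zinc finger factor of differentiating epithelia, rose by 1.15 (361 ± 16.6 to 841 ± 44.3). Of 13 imprinted genes 1 rose (7.69%, against 4.31% of all genes). It was the RAS-related DIRAS3, which rose by 1.35 (83.4 ± 13.5 to 264 ± 66.1).

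Most interferon-stimulated genes tested were not called at this dose. Of 23, 3 were higher (13%, against 4.31% of all genes) and 1 lower (4.35%, against 3.38%), with a median of 0.17. After quantile normalization 6 were higher and 1 lower. IFITM3, a membrane protein that restricts viral entry, rose by 1.77 (37.5 ± 8.60 to 205 ± 4.32, adjusted p = 7.92e-08), on a probe set that can take signal from its neighbours in the family. IRF7, the regulator of type I interferon genes, rose by 1.23 (61.2 ± 8.81 to 186 ± 18). HERC5 rose by 0.40 and EIF2AK2, the kinase that senses double-stranded RNA, fell by 0.57, and both calls were lost without vehicle replicate 1, that of HERC5 also without treated replicate 1. OAS1 (0.47), ISG15 (0.26) and IFIH1 (0.31) did not pass. Of 16 antigen presentation genes 2 rose, HLA-C by 0.48 and HLA-B by 0.38. Both lost the call without treated replicate 2, and HLA-B also lost it without vehicle replicate 2.

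Most genes of DNA methylation and of the handling of cytidine analogs were not called, but the called share of each list was above that of all genes. DNMT1, the maintenance methyltransferase that the drug traps, was at 1439 ± 26.7 with vehicle and 1239 ± 94.1 with decitabine, a difference of −0.21 that did not pass (adjusted p = 0.0647). DNMT3B, a de novo methyltransferase, rose by 0.63 (479 ± 83.3 to 759 ± 88.8, adjusted p = 0.00335), a call lost without vehicle replicate 2 or treated replicate 1 (adjusted p up to 0.0724). DNMT3A differed by −0.03 (95% interval −0.34 to 0.27), with a sign that turned under other scalings. Of 13 genes of the methylation machinery the only other call was MBD4, a glycosylase that repairs mismatches at CG sites, which rose by 0.35 and lost its call without vehicle replicate 1 or treated replicate 1. The 2 rises are 15.4% of the 13, against 4.31% of all genes. DCK, the activating kinase, differed by −0.24 (95% interval −0.50 to 0.02). The transporter SLC29A1 (−0.21), the deaminases CDA (0.25) and DCTD (0.01) and the thymidylate synthase TYMS (0.28) also did not pass. Of 25 analog handling genes 4 fell (16%, against 3.38% of all genes) and 0 rose. NT5E, a surface nucleotidase, fell by 0.56 (514 ± 63.5 to 336 ± 5.91, adjusted p = 0.000432), and DHODH (−0.48), DTYMK (−0.42) and CAD (−0.34), enzymes of pyrimidine synthesis, lost their calls without each of the 4 arrays in turn. Median centring left 1 of the 4 falls.

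Few proliferation and repair genes were called. Of 58 genes of DNA replication and the G1/S transition, 2 rose and 3 fell (median −0.05), and of 69 genes of G2/M and mitosis 3 rose and 1 fell (median −0.02), which is near the 7.69% called over all genes. CCND3, cyclin D3, rose by 0.63 (2930 ± 362 to 4536 ± 26.8) and passed whichever array was left out. The other calls were ORC3 (0.35), RFC4 (−0.31), CCNE2 (−0.44) and the chromatin assembly subunit CHAF1A (−0.86), then CENPN (0.38), CDC25B (0.33), AURKA (0.32) and STMN1 (−0.38), and each was lost without at least 1 array. None of 44 genes of damage signalling and repair, 14 histone genes, 13 HOX genes, 47 genes of oxidative phosphorylation, 38 ribosomal proteins and 21 housekeeping genes passed in limma, where 7.69% of all genes did. At an unadjusted p under 0.05 these lists held 3, 0, 2, 6, 2 and 5 genes, and all genes 1760 of 8024. Other lists held 1 or 2 calls: HSPH1 rose among 25 chaperones, whereas TFF1, the 1 call among 17 secretory genes of the line, lost it without 3 of the 4 arrays (adjusted p up to 0.103), and GPX3, the 1 call among 13 glutathione enzymes, lost it without each of the 4 in turn (up to 0.142). The list of 17 cholesterol genes had 1 higher and 1 lower, while 28 NRF2 targets and 30 ribosome biogenesis genes had 2 lower each.

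**Figure D3:**
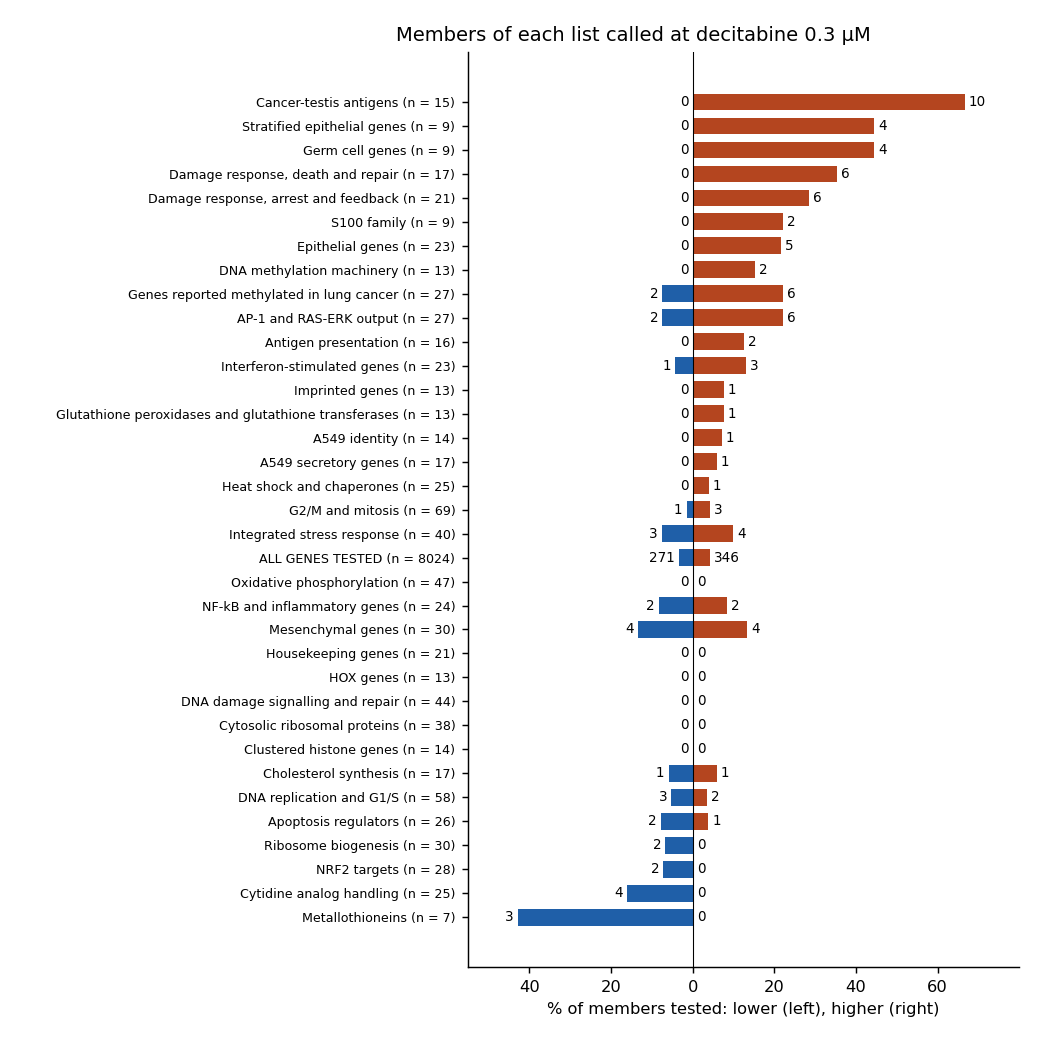
Share of the members tested that were higher (right) or lower (left) with decitabine 0.3 µM than with vehicle in A549, for gene lists with at least 7 members tested and for all genes, with counts at the bars. Cancer-testis antigens (10 of 15) stand apart from all genes (346 higher and 271 lower of 8024), while the replication and mitosis lists stay close to them. Genes could pass the filter on low signal through the arrays where they were high, so the cancer-testis count does not describe silent members.

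The few calls in the stress and inflammatory lists went in both directions. Over all genes 4.31% were higher and 3.38% lower. In the integrated stress response, which raises amino acid genes through ATF4, 4 of 40 rose (10%) and 3 fell (7.5%), with a median of 0.01. CTH, an enzyme of cysteine synthesis, rose by 1.43 (75.3 ± 3.56 to 259 ± 32.4), the factors ATF3 and ATF5 by 0.88 and 0.85, and CEBPB by 0.36. PYCR1 (−0.60), the cystine transporter SLC7A11 (−0.56) and its partner SLC3A2 (−0.30) fell. In the list of AP-1 factors and RAS-ERK output 6 of 27 rose (ATF3, HBEGF, MAFF, IER3, JUND and DUSP5), while JUN fell by 0.50 and MYC by 0.29. The shares of this list are 22.2% higher and 7.41% lower. In the list of inflammatory genes the chemokine CCL20 rose by 1.69 (13 ± 2.77 to 113 ± 8.45) and IER3 by 0.41, whereas CCL2 fell by 0.80 and IL11 by 0.68. These are 2 higher and 2 lower of 24, or 8.33% each. The metallothioneins, which bind zinc and copper, had 3 of 7 lower (MT1X −0.49, MT2A −0.47, MT1H −0.42), on probe sets that can take signal from one another, and 1 lower after median centring. Among 26 apoptosis regulators BIK rose, and the caspase CASP6 and the adaptor FADD fell by 0.74 and 0.43, which is 3.85% higher and 7.69% lower. Of these calls CEBPB, SLC7A11, SLC3A2, HBEGF, IER3, MYC, CCL2, MT2A, MT1H and FADD were lost without at least 1 array.

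The larger falls were mostly of genes already expressed with vehicle, and several rested on a vehicle array. Of 125 called falls of at least 0.5 on the log2 scale, 4 started from a mean vehicle signal under 100. RNF167, a RING-type ubiquitin ligase, had signals of 1457 and 923 with vehicle and of 269 and 277 with decitabine. The vehicle arrays differed from each other more than the treated arrays did, and the fall was 1.97 on the log2 scale (SE 0.456, adjusted p = 0.00949). With vehicle replicate 1 left out the difference was −1.65 (adjusted p = 0.121), and the call was also lost without either treated array. AFAP1, an actin filament binding protein, fell by 1.38 (878 and 471 to 261 and 200), with −0.95 and adjusted p = 0.297 without vehicle replicate 1. KCNMA1, a calcium-activated potassium channel, fell by 1.23 (764 ± 159 to 307 ± 56.1, adjusted p = 0.000341) and kept its call in every setting run. MAD1L1, a spindle checkpoint protein (−1.08), the sodium channel SCN9A (−1.07) and the G protein subunit GNAL (−1.0) kept theirs in every setting that tested them. So did AGAP1 (−0.95) and TBC1D22A (−0.87), except that neither reaches the log2 difference of 1 that 1 setting also asked for. TTF2 (−1.08), PPP6R2 (−0.94), THSD7A (−0.90), BST1 (−0.89), DPYD (−0.88), CEACAM5 (−0.88) and the deacetylase HDAC4 (−0.87) complete the 15 largest falls and each lost its call without at least 1 array. The median vehicle signal of genes called lower was 764, against 381 for those called higher and 473 for all genes.

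Azacitidine at the same 0.3 µM gave 196 genes (2.44%) called against the same vehicle arrays, 94 higher and 102 lower. The test of decitabine against azacitidine, the 1 pair of compounds compared, found 291 genes higher with decitabine (3.63%) and 166 lower (2.07%). Median centring gave 161 higher and 174 lower, so the balance of directions depended on scaling, and the count in all was 173 or 197 without decitabine replicate 1 or 2 and 183 or 195 without azacitidine replicate 1 or 2. Decitabine lacks the hydroxyl group of ribose that azacitidine has. Here the compounds were compared at 0.3 µM alone, so structure and potency cannot be told apart, and the cause of the differences was not tested. The largest difference between the compounds was in a germ cell gene. DAZL was at 3.97 and 20.1 with azacitidine, where the vehicle arrays had 27.2 and 13.7, and the difference between the drugs was 4.14 (95% interval 3.8 to 4.48, adjusted p = 3.16e-13). MAGEA4 was at 32.1 and 38.2 with azacitidine (difference 3.51, 3.10 to 3.92) and MAGEB2 at 64.1 and 58.6 (2.88). Of the 15 cancer-testis genes tested, 10 were higher with decitabine and 0 lower. Members could pass the filter through the arrays where they were high, so this count does not describe the silent ones either. The median difference of the 15 ran from 1.45 to 1.54 when one array was left out. SPANXB1 was at 132 and 130 with azacitidine (1.09 above vehicle, adjusted p = 0.0167), a call lost without vehicle replicate 1 or azacitidine replicate 1, and stood 2.60 lower than with decitabine.

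Epithelial genes and damage response genes were also higher with decitabine than with azacitidine. CDH1 was at 172 ± 5.75 with azacitidine, a difference of 1.41 (1.06 to 1.76), and CDKN1A at 1242 ± 38.5, a difference of 0.75 (0.55 to 0.95). Of 23 epithelial genes 9 were higher with decitabine, but 4 or 5 when one array was left out. Of 21 arrest genes 8 were higher and DDIT4 lower, with 3 to 5 higher when one array was left out. Other genes did not separate the compounds at this size of test. IFITM3 reached 187 ± 20.1 with azacitidine (difference 0.11, 95% interval −0.20 to 0.43), KLF4 717 ± 81.2 (0.22, −0.11 to 0.56) and S100P 2485 ± 9.54 (0.55, 0.10 to 1.01, adjusted p = 0.157). RNF167 was at 266 and 368 with azacitidine (−0.18, −1.13 to 0.77), an interval too wide to separate like from unlike.

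The integrated stress response ran the other way. Of 40 genes tested 23 were lower with decitabine than with azacitidine and only ATF5 was higher (0.44), with a median of −0.36, and 14 or 15 were lower when one array was left out. Against vehicle, azacitidine raised 22 of them and lowered 0, with 14 raised without vehicle replicate 1 and 12 or 13 without azacitidine replicate 1 or 2. ASNS, the asparagine synthetase, was at 1843 ± 18.6 with vehicle, 1784 ± 124 with decitabine and 4158 ± 97.0 with azacitidine, a difference between the drugs of −1.21 (−1.35 to −1.06, adjusted p = 1.37e-10). NUPR1, a stress-induced chromatin protein, was at 561 ± 39.4, 509 ± 15.6 and 1176 ± 20.8 (−1.16, adjusted p = 9.2e-05). PHGDH (−0.76), CBS (−0.74), ATF4 itself (−0.63) and the aminoacyl-tRNA synthetase YARS1 (−0.62) were lower as well. NNMT, a nicotinamide methyltransferase outside this list, was at 3833 ± 328 with vehicle, 2105 ± 40.8 with decitabine and 3853 ± 96.8 with azacitidine (−0.86, adjusted p = 0.00154).

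A higher dose of decitabine added to some of these changes and left others where they were. Against the same vehicle arrays 1330 genes (16.6%) were called at 1 µM and 2067 (25.8%) at 3 µM. In the direct tests 113 genes differed between 1 and 0.3 µM (1.41%), 73 higher and 40 lower, and this count dropped to 28 or 52 without replicate 1 or 2 at 0.3 µM and to 36 or 20 without replicate 1 or 2 at 1 µM. At 3 against 0.3 µM 455 were higher (5.67%) and 257 lower (3.2%). The 3 µM comparison gave 337 genes in all without replicate 1 at 3 µM, the array labelled a repeat, and 367 or 363 without replicate 1 or 2 at 0.3 µM, and median centring gave 247 higher and 264 lower. Of the 346 genes that rose at 0.3 µM, 67 were higher again at 3 µM and 10 lower, and of the 271 that fell, 14 were lower again and 29 higher, where both tests share the arrays at 0.3 µM.

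Most germ line genes were no higher at the higher doses than at 0.3 µM. DAZL was at 732 ± 29.0, 816 ± 85.6 and 676 ± 95 at 0.3, 1 and 3 µM (3 against 0.3 µM −0.11, 95% interval −0.45 to 0.22). TDRD12 was at 186 ± 25.5, 202 ± 17.2 and 206 ± 35.9 (0.12, −0.14 to 0.39). MAGEA12 was lower at 3 µM than at 0.3 µM, 499 ± 34.3 against 734 ± 25.5 (−0.53, adjusted p = 0.000418), and kept that call whichever array was left out. MAGEA1 (−0.62) and MAGEA4 (−0.70, 457 ± 185 at 3 µM) were also lower, but lost the call without 3 of the 4 arrays. GAGE1 (0.67) was the 1 cancer-testis gene called higher at 3 µM, a call lost without replicate 1 at 0.3 or at 3 µM.

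A number of epithelial genes and damage response genes were higher again at the higher doses. LY6D was at 333 and 323 at 1 µM and at 744 and 721 at 3 µM, above every array at 0.3 µM, a difference of 2.41 at 3 against 0.3 µM (adjusted p = 4.21e-08). CDH1 reached 904 ± 5.32 at 3 µM (0.79), EPCAM 1236 ± 51.0 (1.10) and KRT19 755 ± 57.9 (1.34). Of the arrest genes 11 of 21 were higher again and 0 lower, and of those of death and repair 8 of 17 and 0, which became 7 or 8 and 5 to 7 without one array. CDKN1A reached 3613 ± 217 (0.77), FAS 1742 ± 52.9 (1.12) and PPM1D 2160 ± 176 (1.00). MDM2, not called at 0.3 µM, was at 296 ± 3.85 at 3 µM (0.78, adjusted p = 0.0205, up to 0.115 without one array).

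Many replication and mitosis genes were lower at the highest dose than at the lowest. At 3 against 0.3 µM, 21 of 58 replication and G1/S genes were lower and 0 higher (15 to 22 lower without one array), and 27 of 69 mitotic genes were lower and 0 higher (13 to 16). E2F8, a cell cycle transcription factor, was at 501 ± 23.4 with vehicle, 425 ± 34.8 at 0.3 µM and 192 ± 30.0 at 3 µM (−1.03, adjusted p = 1.3e-05). MCM10 (−0.84), MCM2 (−0.72) and RFC2 (−0.71), of the replication fork, and the tubulin regulator STMN1 (−0.80) fell too. The 3 metallothioneins that were lower at 0.3 µM were called higher at 3 than at 0.3 µM (MT1X by 0.49), in tests that share the 0.3 µM arrays, and only 1 metallothionein was called without 0.3 µM replicate 2, without 3 µM replicate 1 or after median centring.

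**Figure D4:**
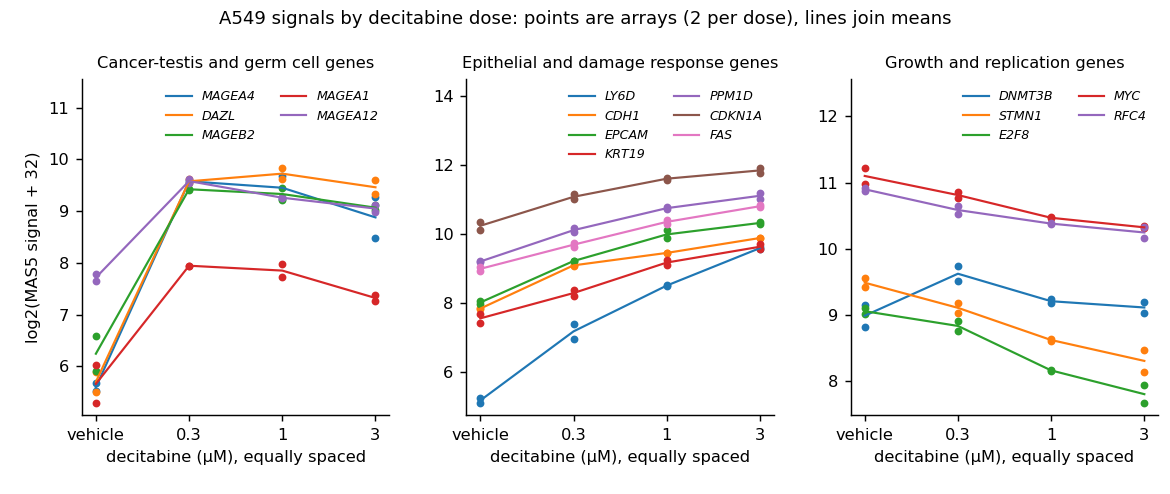
Log2(signal + 32) in A549 with vehicle and with decitabine at 0.3, 1 and 3 µM, for cancer-testis and germ cell genes (left), epithelial genes and damage response genes (middle) and DNMT3B with proliferation genes (right). Points are arrays and lines join group means. DAZL is level from 0.3 µM on, LY6D climbs at each dose, and E2F8 falls from 425 at 0.3 µM to 192 at 3 µM.

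In H1299 the same dose gave 1428 genes called (17.8%). The test of the difference between the lines found 191 genes with a higher response in A549 (2.38%) and 215 with a lower one (2.68%), 406 in all. Without one array this was 241 to 372, with the lower counts without A549 decitabine replicate 1 (267) or 2 (259), H1299 vehicle replicate 1 (266) or 2 (244) and H1299 decitabine replicate 1 (241). Of 15 cancer-testis genes, 5 had a greater response in A549 and 5 a smaller one. There were 5 greater responses whichever array was left out, but the smaller ones numbered 2 without A549 vehicle replicate 1, A549 decitabine replicate 2 or H1299 decitabine replicate 1, and 3 without A549 decitabine replicate 1, H1299 vehicle replicate 2 or H1299 decitabine replicate 2. MAGEA4 was already at 6527 ± 200 in H1299 vehicle and at 6481 ± 496 with decitabine, so its response was greater in A549 by 3.99 (adjusted p = 4.38e-09). MAGEA1 (1607 ± 102 to 1567 ± 67.1), MAGEA12 (6918 ± 89.8 to 7109 ± 640), TDRD12 (3742 ± 49.7 to 3988 ± 91.1) and IFITM3 (2293 ± 158 to 2238 ± 57.4) were likewise high in H1299 beforehand. Some genes that were low with vehicle in both lines rose in both and further in H1299, DAZL from 3.53 ± 0.456 to 1429 ± 120 (difference of responses −1.48, adjusted p = 0.000286) and MAGEB2 from 26.5 ± 17.3 to 2747 ± 57.0 (−2.43). SPANXB1, also low in both, was at 16.1 ± 5.35 and 39.0 ± 6.82 in H1299, with a response 3.12 greater in A549, and CNGB1 (2.09), HPD (1.99) and LY6D (1.89) likewise responded more in A549.

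The epithelial genes differed one by one. CDH1 was at 8.47 ± 8.53 with vehicle and 2.36 ± 0.814 with decitabine in H1299, so the response was greater in A549 by 1.47 (adjusted p = 0.000464), and LY6D also stayed low there (3.39 ± 0.587 and 6.15 ± 0.668, difference of responses 1.89). KRT19 rose further in H1299, from 1.23 ± 0.175 to 121 ± 3.20 (−1.47). For EPCAM the difference was −0.40 (95% interval −0.91 to 0.12). The damage response genes were mixed as well. FAS rose in A549 and fell in H1299 (456 ± 8.28 to 300 ± 20.5), a difference of 1.26 (adjusted p = 8.75e-06). CDKN1A rose in H1299 too, from 437 ± 21.1 to 778 ± 93.1, and the responses differed by 0.05 (−0.23 to 0.34), as did those of TIGAR by 0.03 (−0.19 to 0.25). PPM1D (0.66) and DDB2 (0.64) had greater responses in A549, calls that were each lost without 5 of the 8 arrays.

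**Figure D5:**
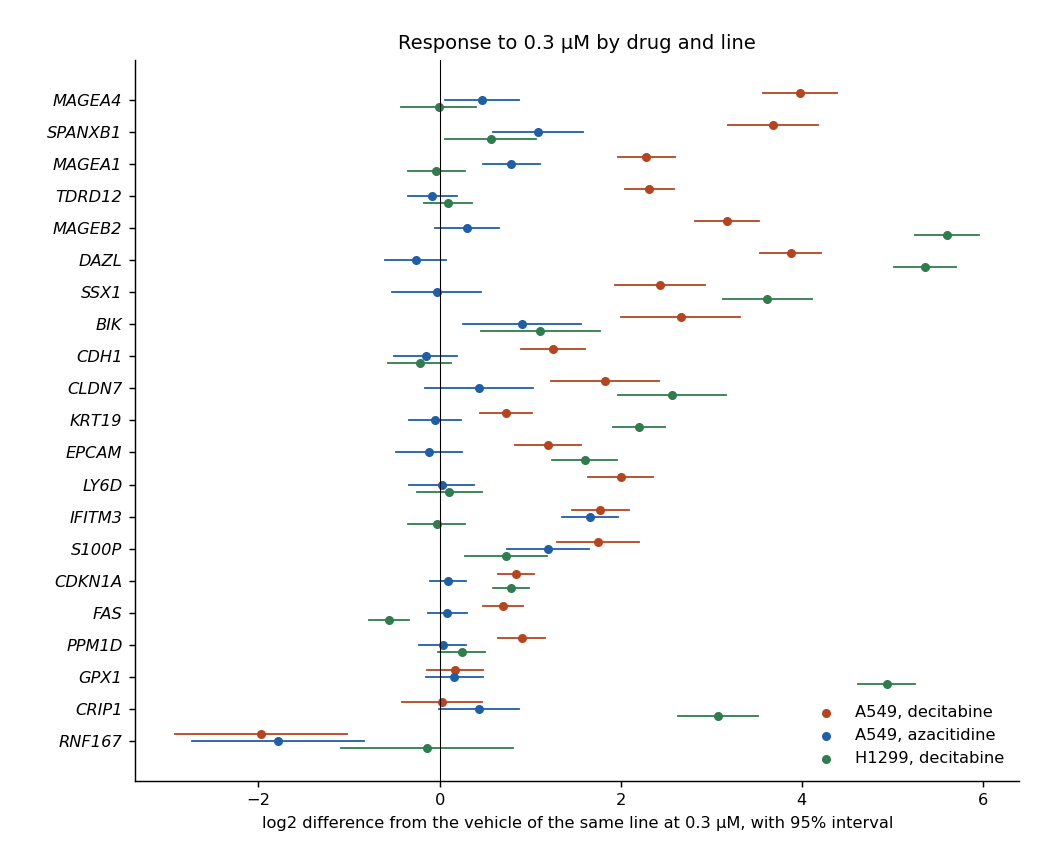
Log2 difference from the own vehicle, with its 95% interval, for 21 genes in A549 with decitabine 0.3 µM, A549 with azacitidine 0.3 µM and H1299 with decitabine 0.3 µM. MAGEA4 is at 3.98 in A549 with decitabine and at −0.01 in H1299, where its vehicle signal was already 6527, whereas DAZL is at 3.87 and 5.36.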

How the data were processed

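Microarray expression was measured in 28 samples, 14 groups of 2, on total RNA. The authors deposited 1 table of linear signal intensity for 22277 probe sets, made with MAS5 per the submitters' processing notes, with no version given. The values carry no counts, and precision is limited by having 2 arrays a group. Of the probe sets, 19070 had 1 gene symbol, 1043 several and 2164 none, and only the first were named. The signals were taken as log2(signal + 32), with no further normalization. Probe sets above the array median on at least 2 arrays were kept (11800), and the one with the highest mean stood for each of 8024 genes. Means of the 14 groups were fitted with limma 3.58.1 in R 4.3.3 (eBayes with an intensity trend, 14 residual degrees of freedom), two-sided, with Benjamini-Hochberg adjustment over all genes tested at 0.05. All adjusted p-values come from this fit, which was tested on simulated data first.

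Genes were named by rule: the 15 largest called rises and falls whose arrays do not overlap, the 4 largest called members of each list in each direction, a fixed panel, and the 6 largest differences each way in the drug, 3 µM and line comparisons. Members of lists given besides these were chosen after their values were seen. The comparison and the 36 gene lists were chosen with earlier results of these data known. Other scalings, pseudocounts, filters, sample sets and a replicate block were tried. Leaving out single arrays for the lists and the named genes, and other scalings for the lists, were added after seeing the data.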

Additional observations from a re-analysis of the deposited data

Results flagged for a closer look

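The response to decitabine at 0.3 µM differed between A549 and H1299 for 49 of the genes selected by the naming rule, by limma's test of the difference itself at an adjusted p of 0.05. Values are the A549 response minus the H1299 response on the log2 scale, with 2 arrays a group in each line.

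The response was greater in A549 for the germ line genes MAGEA4 (3.99), SPANXB1 (3.12), MAGEA1 (2.32), TDRD12 (2.22) and MAGEA12 (1.83). It was also greater for the tissue-specific genes CNGB1 (2.09), HPD (1.99), LY6D (1.89), TFF1 (1.53), CDH1 (1.47) and NEFH (1.02), and for the damage response genes BIK (1.55), FAS (1.26), PPM1D (0.66) and DDB2 (0.64). IFITM3 (1.81), KLF4 (1.44), CTH (1.16), ACTA2 (0.69), HERC5 (0.68), CCND3 (0.67) and CDC25B (0.55) followed the same direction. VAC14 differed by 2.24, with signals that were higher with decitabine in A549 and lower in H1299.

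The response was lower in A549 than in H1299 for DAZL (−1.48), SSX1 (−1.18), SSX3 (−1.57), MAGEB2 (−2.43) and TKTL1 (−2.85). It was lower for KRT19 (−1.47), SFN (−1.11) and SPARC (−1.45), which were higher with decitabine in both lines, as was IER3 (−0.40). Among genes that fell in A549, KCNMA1 (−0.99), MAD1L1 (−1.16), THSD7A (−1.17), BST1 (−1.55), CCN2 (−1.70), IL11 (−1.04), COL5A2 (−0.94), CCN1 (−0.86), NT5E (−0.78), NNMT (−0.78), DDX10 (−0.53) and MT1X (−0.45) also differed. Among the most negative values were those of GPX1 (−4.77), CRIP1 (−3.05), DHRS2 (−2.85), GJA1 (−2.65) and S100A6 (−2.47). GPX1, a peroxidase that uses glutathione, was at 2212 ± 179 and 2490 ± 75.5 in A549 with vehicle and decitabine, and at 7.8 ± 8.07 and 1176 ± 101 in H1299 (SD, n = 2).

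Of these 49 calls, 31 were made again whichever of the 8 arrays was left out. The other 18, those of BIK, VAC14, NEFH, PPM1D, DDB2, ACTA2, HERC5, CDC25B, SSX1, SSX3, IER3, KCNMA1, MAD1L1, THSD7A, COL5A2, NNMT, DDX10 and MT1X, were lost without at least 1 array, with adjusted p up to 0.236 for BIK and 0.208 for SSX1.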

How the results depend on the processing

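The 617 genes called between decitabine 0.3 µM and vehicle became 71 when a log2 difference of at least 1 was also asked for, 214 when only the 4 arrays were fitted, and 290 to 588 without one array. The other settings gave 528 (pseudocount 1) to 769 (all probe sets). For decitabine against azacitidine, 56 genes had that difference, and 173 to 197 were called without one array. For 3 against 0.3 µM the counts were 34 with that difference, 262 with the groups alone and 337 to 507 without one array, with 337 without the array labelled a repeat, whose removal gave 631, 458, 105 and 395 genes in the main, azacitidine, 1 µM and line comparisons. For the difference between the lines the same 3 settings gave 146, 177 and 241 to 372. The comparison of 1 with 0.3 µM was the least stable, with 5 genes at that difference, 66 after median centring, 72 with no filter, 64 on A549 arrays alone and 20 to 52 without one array. With its groups alone limma called 0, and 921 genes had an unadjusted p under 0.05. The causes were not tested, beyond the smaller number of arrays where some were left out. DNMT3A turned from −0.03 to 0.038 with quantile normalization and 0.015 with median centring and ran from −0.19 to 0.13 without one array, MDM2 turned from −0.01 to 0.033 and 0.040 and ran from −0.16 to 0.14, and DCTD ran from −0.028 to 0.044, none of them called. For arrays of equal replicate number, the deviations of vehicle had a correlation of 0.03 with decitabine 0.3 µM, 0.17 with 1 µM and −0.25 with 3 µM. A replicate block gave 667, 480, 116, 782 and 431 genes in the 5 comparisons, more in each than the 617, 457, 113, 712 and 406 without it. Whether equal replicate numbers pair the arrays is therefore not settled.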
